A study of Homo sapiens with 6 samples.

Results

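G protein-coupled receptors of PANC-1, a human pancreatic ductal adenocarcinoma cell line, were described in RNA-seq of DKK1-SE-/- and DKK1-SE+/+ cells. The members were chosen by annotation and by counts: the deposited table had to give the gene the Gene Ontology term for G protein-coupled receptor activity, its symbol could not begin with FZD or LGR, and its expected count had to reach 10 in 3 or more of the 6 samples. Of the 62703 genes listed, 1219 carried the term, 12 of these were Frizzled or LGR genes, and 1207 were left, of which 87 met the limit on counts and are called the described members. Of the 1207, 837 had no count in any sample and 797 were opsins or taste or olfactory receptors by symbol. DKK1-SE is a super-enhancer, a cluster of strong enhancers, and its component enhancer e1 had been removed from both alleles with CRISPR/Cas9 in the cells labelled DKK1-SE-KO. These cells grew from a single subclone, so the 3 DKK1-SE-/- replicates were samples of 1 clone, and differences between this clone and the parental line cannot be told apart from the effect of the deletion. The 3 DKK1-SE+/+ replicates, labelled WT, were unedited and untreated, both groups were grown in the same medium, and each sample is labelled as a biological replicate. The total expected count lay between 16475810 and 21822314 per sample, and the described members together took between 39879 and 53740 of these counts, 0.223% to 0.253% of a library.

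G protein-coupled receptors sense hormones, lipids, proteases, amines and neighbouring cells, and pass the signal to heterotrimeric G proteins inside the cell. The G alpha subunits raise or lower cyclic AMP through adenylyl cyclases or activate phospholipase C beta, and receptor kinases, arrestins, RGS proteins and phosphodiesterases end the signal. In the pancreas such receptors act in enzyme and hormone secretion, and in ductal adenocarcinoma the receptors for neurotensin, proteases and lysophospholipids have been linked to growth and invasion.

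DKK1, the gene that the study follows as the target of DKK1-SE, had a TPM of 229, 246 and 198 in DKK1-SE+/+ against 66.8, 79.8 and 82.7 in DKK1-SE-/- cells. TPM, transcripts per 1000000 transcripts, is the deposited abundance corrected for length, and values in a row are given for replicates 1, 2 and 3. Every DKK1-SE-/- value lay below every DKK1-SE+/+ value, in the direction the labels give, with a two-sided exact permutation p of 0.1, the smallest that 3 samples against 3 allow. The table holds no measurement of the deleted enhancer itself. All 8 epithelial and PANC-1 markers had a mean TPM of at least 1, led by VIM, with a summed TPM of 6450, 6963 and 7285 in DKK1-SE+/+ against 6730, 6349 and 6182 in DKK1-SE-/- cells. Of these markers, named after their values were seen, 3 were called higher in DKK1-SE-/- cells, KRT19 (log2 fold change 1.83, adjusted p = 1.4e-05), KRT8 (0.86, 0.000518) and KRT18 (0.67, 0.000987). VIM (-0.47, 0.00597) and EPCAM (-0.67, 0.0395) were called lower, and KRT7, CDH1 and CD44 were not called. The call of EPCAM was lost in most alternatives, as with the replicate block (adjusted p = 0.0756). The acinar genes CELA3A, PNLIP and AMY2A and the endocrine genes INS and SST were at 0 in every sample, and the defining leukocyte, endothelial and stromal markers PTPRC, PECAM1 and DCN were at or near 0. The leukocyte list, whose most abundant gene is CD68, had a summed TPM of 43.9, 41.2 and 47.0 in DKK1-SE+/+ against 69.2, 66.6 and 68.7 in DKK1-SE-/- cells, with 1 of its 6 genes at a mean TPM of at least 1. CD14 of this list, named after its values were seen, had 0.62, 0.28 and 0.51 in DKK1-SE+/+ against 1.07, 1.54 and 1.46 in DKK1-SE-/- cells. Both CD68 (log2 fold change 0.76, adjusted p = 0.000407) and CD14 (1.76, 0.00539) were called higher. COL1A1 alone carried the fibroblast list (1 of 6 genes at a mean TPM of at least 1), whose sum was 92.8, 103.6 and 104 in DKK1-SE+/+ against 12.9, 9.77 and 16.8 in DKK1-SE-/- cells, and KDR carried the endothelial list (1 of 5 genes), whose sum was 2.54, 2.57 and 2.12 against 0.48, 0.58 and 0.62. Whether these differences take part in those of the receptors was not tested.

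The question was which of these receptors differed between the groups. Counts were compared with edgeR's quasi-likelihood test over all 15179 genes with enough counts, and a member was called higher or lower in DKK1-SE-/- cells at a Benjamini-Hochberg adjusted p under 0.05. The p-values measure the spread between samples of 1 clone and of the parental line, not between clones. The test covered 82 of the 87 described members: 28 were called higher (34.1%, against 19.8% of all tested genes), 21 were called lower (25.6%, against 19.5%) and 33 were not called. With an unadjusted p under 0.05 and a log2 fold change of at least 1.2 in either direction, the log2 limit used here, 16 were higher (19.5%, against 4.96%) and 5 were lower (6.10%, against 3.7%). The study words its limit as an absolute fold change of 1.2 and names no log2 scale. With 1.2 taken on the linear scale, 30 were higher (36.6%, against 24.3%) and 22 lower (26.8%, against 23.3%). Over all tested genes, the log2 limit gave 753 higher and 561 lower, and the linear limit 3696 and 3531. The study's own numbers of up-regulated and down-regulated genes are nearer to those of the log2 limit. Of the described members, 7 reached the count limit through the samples of 1 group alone, 6 of them through the DKK1-SE-/- samples, so these were bound to differ and nothing is drawn from their calls. Without these 7 members, 22 of 75 were higher (29.3%) and 21 lower (28%), and 10 and 5 passed the log2 limit. Among the 57 members that reached the limit in all 6 samples, 18 were higher and 20 lower, and 6 and 4 passed the log2 limit. Without the 7 members, TPM did not overlap between the groups for 42 of 75 (56%), against 44.2% of all tested genes. The median absolute log2 fold change of the 75 was 0.72, against 0.38 over all tested genes. The values over all tested genes keep those that passed the filter through 1 group alone, and the sets were not matched for level. In the families and lists below, the shares to compare with are 19.8% higher and 19.5% lower. Because the members were chosen with earlier results known, these counts are a description.

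**Figure D1:**
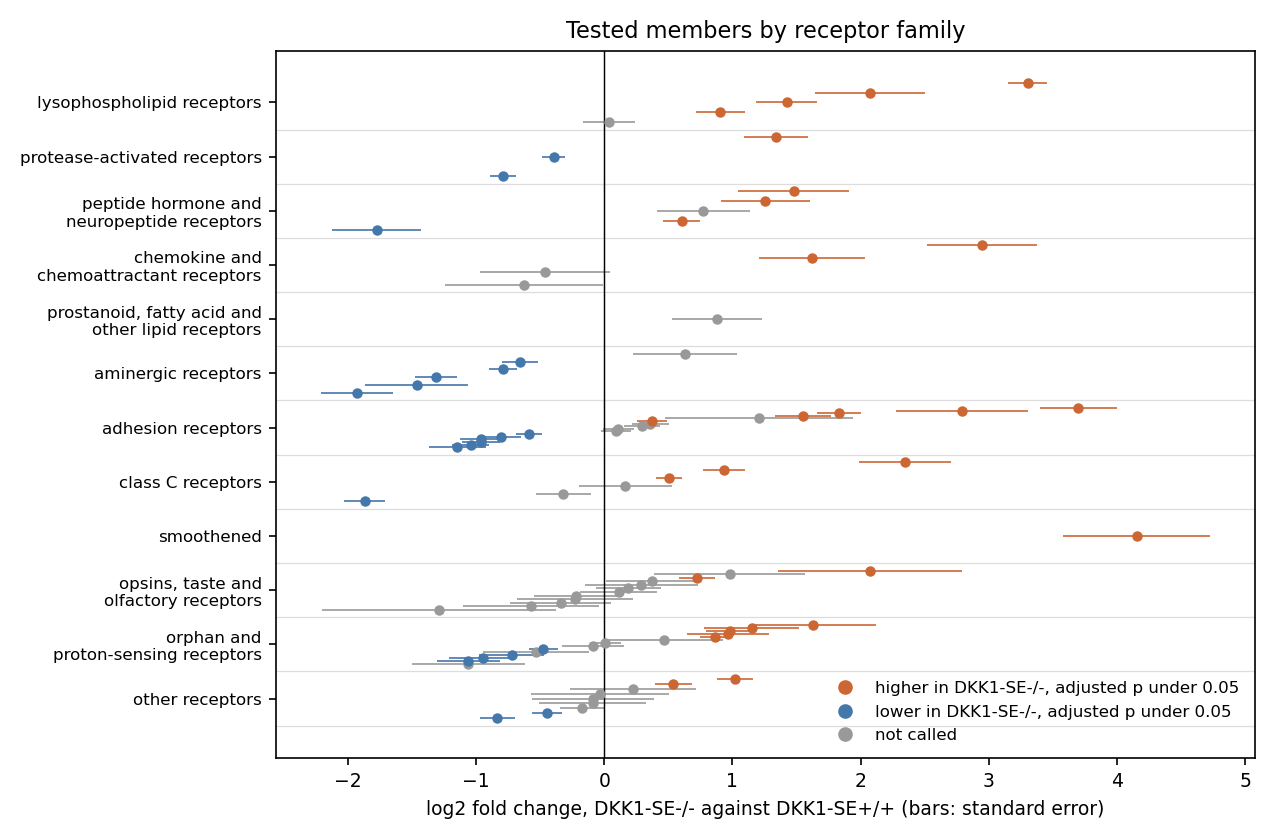
Log2 fold change (x axis) of each of the 82 tested members with its standard error, arranged by receptor family (y axis). Orange points were called higher in DKK1-SE-/- cells, blue points lower and grey points were not called. The 5 called aminergic receptors lie below 0 and the 4 called lysophospholipid receptors above it. Of these 4, S1PR1 reached the count limit only through the DKK1-SE-/- samples and was bound to be higher. The points include the 7 members that passed the count limit through 1 group alone, whose direction was fixed by it.

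The described members spanned a wide range of levels. By mean TPM over the 6 samples, 21 reached 10, 27 lay from 1 to 10 and 39 were under 1. F2RL1, a receptor that is cleaved by trypsin-like proteases, was the most abundant in every sample, with a TPM of 285, 291 and 289 in DKK1-SE+/+ against 189.6, 196 and 207 in DKK1-SE-/- cells. Its level was lower in each DKK1-SE-/- sample, without overlap. GPRC5A, an orphan receptor induced by retinoic acid, had 87.2, 80.9 and 91.1 in DKK1-SE+/+ against 139.8, 112 and 141 in DKK1-SE-/- cells, higher in each DKK1-SE-/- sample. ADGRE5, an adhesion receptor that binds CD55, had 73.8, 85.7 and 89.5 in DKK1-SE+/+ against 82.9, 68.8 and 80.3 in DKK1-SE-/- cells, and its groups overlapped (log2 fold change 0.09, adjusted p = 0.565). ADGRG6 ranked 2 in DKK1-SE+/+ cells and 6 in DKK1-SE-/- cells. F2RL1, GPRC5A, ADGRE5 and ADGRG6 together made up 54.4% to 54.9% of the summed TPM of the described members in DKK1-SE+/+ cells, against 49.1% to 49.7% of it in DKK1-SE-/- cells. The sum over the described members was 981, 996 and 1019 in DKK1-SE+/+ against 889, 836 and 946 in DKK1-SE-/- cells, so that each DKK1-SE-/- sample was below each DKK1-SE+/+ sample.

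**Figure D2:**
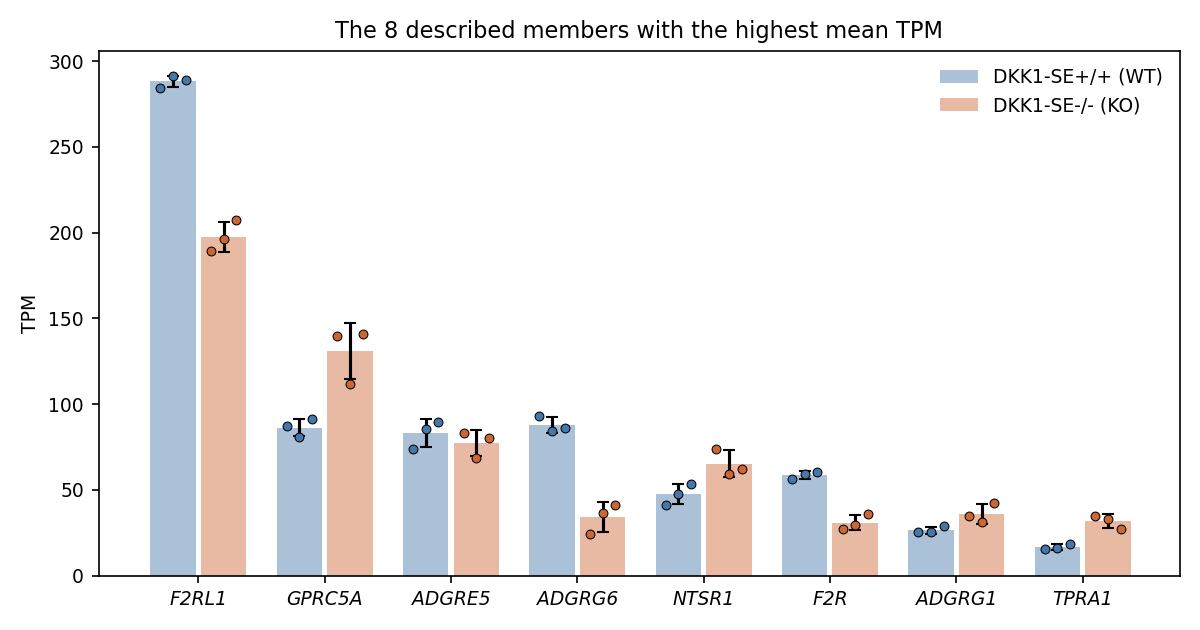
TPM (y axis) of the 8 described members with the highest mean TPM. Bars are group means of 3 samples, error bars are the SD and points are single samples; F2RL1, ADGRG6 and F2R were lower and GPRC5A, NTSR1, ADGRG1 and TPRA1 higher in DKK1-SE-/- cells, while the samples of ADGRE5 overlapped.

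The supply of ligands was read from lists of enzymes, transporters and peptide precursors. Among 11 tested genes of lysophospholipid supply and removal, 4 were higher (36.4%, against 19.8% of all tested genes) and 3 lower (27.3%, against 19.5%). SPNS2, which exports sphingosine-1-phosphate, had a TPM of 30.2, 31.9 and 31 in DKK1-SE+/+ against 19.1, 17.2 and 22.3 in DKK1-SE-/- cells and differed by a log2 fold change of -0.54 (standard error 0.108, adjusted p = 0.00274). PLPP3 and PLPP1, phosphatases that remove the phosphate from lysophosphatidic acid and sphingosine-1-phosphate at the cell surface, were higher, with log2 fold changes of 1.06 (adjusted p = 0.000766) and 0.51 (adjusted p = 0.00632). The call of PLPP1 was lost in the limma fit on log2(TPM + 1) (adjusted p = 0.16). The other called genes are named after their values were seen. SPHK1, which makes sphingosine-1-phosphate, was higher (log2 fold change 0.47, adjusted p = 0.0157). Of the genes that break it down, SGPP2 was higher (1.37, 0.0138), and SGPL1 (-0.32, 0.0344) and SGPP1 (-0.32, 0.0427) were lower. Each of these calls was lost with single samples left out, with adjusted p-values of up to 0.0921 for SPHK1, 0.0652 for SGPP2, 0.154 for SGPL1 and 0.147 for SGPP1. With the GC-content offset the sign of SGPP1 turned (adjusted p = 0.719) and SPHK1 had no call (0.403). In the list of thrombin and receptor-cleaving proteases, both tested genes were higher. MMP1, a collagenase that can also cleave the thrombin receptor F2R, had a TPM of 2.32, 1.95 and 2.15 in DKK1-SE+/+ against 24.1, 31.4 and 36 in DKK1-SE-/- cells. F3, the tissue factor that starts the clotting cascade, had 0.76, 0.23 and 0.27 in DKK1-SE+/+ against 1.98, 1.73 and 3.40 in DKK1-SE-/- cells. No sample of either gene overlapped with the other group, and the log2 fold changes were 3.97 (standard error 0.167, adjusted p = 1.35e-07) and 2.62 (standard error 0.355, adjusted p = 0.000271).

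Of 6 tested genes of prostanoid synthesis, 3 were higher and 2 lower; without PTGIS and HPGD, 2 of 4 were higher (50%) and 1 lower (25%). PTGIS, the prostacyclin synthase, had counts of 30.1, 28 and 47 in DKK1-SE+/+ against 1, 0 and 1 in DKK1-SE-/- cells, a ratio of 48.3 (95% interval 13.1 to 404) of DKK1-SE+/+ to DKK1-SE-/- cells. HPGD, which inactivates prostaglandins, had counts of 1, 2 and 2 in DKK1-SE+/+ against 22, 12 and 19 in DKK1-SE-/- cells, a ratio of DKK1-SE-/- to DKK1-SE+/+ cells of 11.5 (95% interval 4.64 to 36.9). PTGIS passed the filter only through the DKK1-SE+/+ samples and HPGD only through the DKK1-SE-/- samples, so that their groups were bound to differ. The ratios are of summed counts per library size, and their exact (Clopper-Pearson) intervals cover counting error only. The fitted fold changes of genes with so few counts depend on the prior count of the fit. AKR1B1, an aldose reductase that also has prostaglandin synthase activity, was higher with a log2 fold change of 0.99 (standard error 0.15, adjusted p = 0.000564). Of 8 tested genes of adenosine and nucleotide turnover, 2 were higher and 2 lower (25% each, against 19.8% and 19.5% of all tested genes). SLC29A2, a nucleoside transporter, had a TPM of 11.1, 12.2 and 12.4 in DKK1-SE+/+ against 5.51, 4.93 and 5.43 in DKK1-SE-/- cells, and ENTPD1, which hydrolyses extracellular ATP, differed by a log2 fold change of -1.10 (adjusted p = 0.00586). Both were lower in every DKK1-SE-/- sample. ENTPD8, of the same enzyme family, was called higher (adjusted p = 0.0453) but lost this call when any of the 6 samples was left out, with an adjusted p of 0.212 without DKK1-SE+/+ replicate 1, 0.101 without DKK1-SE+/+ replicate 2, 0.0569 without DKK1-SE+/+ replicate 3, 0.0951 without DKK1-SE-/- replicate 1, 0.131 without DKK1-SE-/- replicate 2, 0.0734 without DKK1-SE-/- replicate 3. Among 10 tested peptide precursors and processing enzymes, 5 were higher (50%) and 1 lower (10%). Without CALCB, named after its values were seen, which passed the filter only through the DKK1-SE-/- samples, 4 of 9 were higher (44.4%). EDN1, the precursor of endothelin, had a TPM of 29.6, 31.6 and 30.1 in DKK1-SE+/+ against 40.7, 44.3 and 48 in DKK1-SE-/- cells, and GAL, the precursor of galanin, had 0.57, 1.09 and 1.63 in DKK1-SE+/+ against 6.27, 4.31 and 3.05 in DKK1-SE-/- cells. ADM2, a peptide of the calcitonin family, differed by a log2 fold change of 1.09 (adjusted p = 0.00389). ADM, the precursor of adrenomedullin and the most abundant precursor of the list, named after its values were seen, had 91.4, 94.2 and 103 in DKK1-SE+/+ against 66.7, 65.7 and 65.6 in DKK1-SE-/- cells and was called lower (log2 fold change -0.36, adjusted p = 0.02), a call lost with single samples left out (0.0712 without DKK1-SE+/+ replicate 2, 0.101 without DKK1-SE+/+ replicate 3, 0.0504 without DKK1-SE-/- replicate 2).

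Among the receptors, the lysophospholipid family had 5 described members, of which 4 were called higher and none lower. S1PR3 (ENSG00000213694, chromosome 9, 88990863 to 89005155 of GRCh38), a receptor for sphingosine-1-phosphate, had a TPM of 1.69, 1.23 and 1.29 in DKK1-SE+/+ against 11.7, 12 and 14.8 in DKK1-SE-/- cells. Every DKK1-SE-/- sample was above every DKK1-SE+/+ sample, with a log2 fold change of 3.30 (standard error 0.15, adjusted p = 1.7e-07). S1PR1 and S1PR2 bind the same lipid. S1PR1 had counts of 9, 7 and 3 in DKK1-SE+/+ against 19, 29 and 27 in DKK1-SE-/- cells and reached the limit only through the DKK1-SE-/- samples (log2 fold change 2.07, adjusted p = 0.00337). S1PR2 had a TPM of 1.08, 1.13 and 1.40 in DKK1-SE+/+ against 1.88, 1.89 and 2.35 in DKK1-SE-/- cells, again without overlap (log2 fold change 0.91, adjusted p = 0.00368), but its call was lost in limma on log2(TPM + 0.1) (0.0667). LPAR2, a receptor for lysophosphatidic acid, had 2.51, 2.96 and 2.61 in DKK1-SE+/+ against 11.8, 9.39 and 5.24 in DKK1-SE-/- cells, and its DKK1-SE-/- samples were higher but spread over a wide range (log2 fold change 1.42, standard error 0.239, adjusted p = 0.000983). LPAR1, for the same ligand, named after its values were seen as the member with no call, had 2.22, 1.99 and 1.65 in DKK1-SE+/+ against 1.23, 1.91 and 2.18 in DKK1-SE-/- cells, with overlapping groups (log2 fold change 0.04, adjusted p = 0.905). Without S1PR1, 3 of 4 were higher (75%). S1PR5, for sphingosine-1-phosphate, does not carry the annotation term and was no member; named after its values were seen, it had 1.45, 1.54 and 1.83 in DKK1-SE+/+ against 1.36, 1.21 and 1.39 in DKK1-SE-/- cells, lower in each DKK1-SE-/- sample but not called (adjusted p = 0.537). Summed over the 5 members, TPM was 7.71, 7.53 and 7.04 in DKK1-SE+/+ against 27.1, 25.8 and 25.5 in DKK1-SE-/- cells.

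The protease-activated receptors had 3 described members, 2 lower and 1 higher. F2R, the thrombin receptor (chromosome 5, 76716126 to 76735770), had a TPM of 56.1, 59.4 and 60.7 in DKK1-SE+/+ against 27.3, 29.3 and 35.9 in DKK1-SE-/- cells. It was lower in each DKK1-SE-/- sample, with a log2 fold change of -0.79 (standard error 0.102, adjusted p = 0.00019). F2RL1, whose values stand with the most abundant receptors, differed by a log2 fold change of -0.39 (standard error 0.0926, adjusted p = 0.00649). F2RL2, another receptor that thrombin cleaves, had a TPM of 0.89, 0.55 and 0.74 in DKK1-SE+/+ against 1.40, 1.74 and 1.99 in DKK1-SE-/- cells, which was higher in each DKK1-SE-/- sample at a level far under that of F2R (log2 fold change 1.34, standard error 0.249, adjusted p = 0.00177). The genes lie close to each other on chromosome 5, and the tested genes starting within 5 Mb of each had a median log2 fold change of -0.21.

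Peptide receptors had 5 described members, 3 higher and 1 lower. NTSR1, the neurotensin receptor, was the most abundant of them, with a TPM of 41.4, 47.9 and 53.5 in DKK1-SE+/+ against 74.1, 59.4 and 62.3 in DKK1-SE-/- cells. The groups did not overlap (log2 fold change 0.61, standard error 0.145, adjusted p = 0.00713), but the adjusted p was 0.052 without DKK1-SE+/+ replicate 1. OPRD1, the delta opioid receptor, had 0.36, 0.58 and 0.41 in DKK1-SE+/+ against 0.17, 0.09 and 0.09 in DKK1-SE-/- cells, lower in every DKK1-SE-/- sample (log2 fold change -1.77, adjusted p = 0.00242). OPRL1, the nociceptin receptor, had 0.92, 0.33 and 1 in DKK1-SE+/+ against 1.68, 1.84 and 1.39 in DKK1-SE-/- cells, higher without overlap (log2 fold change 1.26, adjusted p = 0.0149, and 0.0583 without DKK1-SE-/- replicate 2). SSTR5, a somatostatin receptor, had counts of 6, 4 and 7 in DKK1-SE+/+ against 16, 14 and 14 in DKK1-SE-/- cells and reached the limit only through the DKK1-SE-/- samples (adjusted p = 0.0194). Without it, 2 of 4 were higher. Its call was lost with several samples left out (0.0926 without DKK1-SE+/+ replicate 1, 0.0872 without DKK1-SE+/+ replicate 2, 0.0834 without DKK1-SE-/- replicate 1).

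The chemokine and chemoattractant receptors had 5 described members and 4 tested ones, of which 2 were higher. CXCR4, the receptor for CXCL12, had counts of 7, 4 and 2 in DKK1-SE+/+ against 31, 34 and 29 in DKK1-SE-/- cells and a TPM of 0.28, 0.23 and 0.11 in DKK1-SE+/+ against 1.5, 1.38 and 1.45 in DKK1-SE-/- cells. It was near the detection limit in DKK1-SE+/+ cells and detected in every DKK1-SE-/- sample (log2 fold change 2.95, standard error 0.43, adjusted p = 0.000431). FPR1, which senses formylated peptides, had counts of 8, 8 and 8 in DKK1-SE+/+ against 18, 35 and 17 in DKK1-SE-/- cells (log2 fold change 1.62, adjusted p = 0.00996), and its adjusted p was 0.0514 without DKK1-SE+/+ replicate 1, 0.0622 without DKK1-SE-/- replicate 2. Both genes reached the count limit only through the DKK1-SE-/- samples, which had to be the higher ones, and neither of the other 2 was called. PTAFR and CXCR6 had overlapping groups and adjusted p-values of 0.449 and 0.496. GPER1, an estrogen-binding receptor in the list of lipid receptors, had a TPM of 0.38, 0.42 and 0.41 in DKK1-SE+/+ against 0.56, 0.74 and 0.61 in DKK1-SE-/- cells, without overlap but without a call (adjusted p = 0.0685).

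Aminergic receptors had 6 described members, of which 5 were called lower and none higher. HTR1B, an inhibitory serotonin receptor, had a TPM of 2.41, 1.72 and 2.90 in DKK1-SE+/+ against 0.48, 0.6 and 0.58 in DKK1-SE-/- cells, the largest fall among the tested members (log2 fold change -1.93, standard error 0.281, adjusted p = 0.000429). HTR7, a serotonin receptor that raises cyclic AMP (chromosome 10, 90740823 to 90858039), had 7.33, 7.65 and 8.02 in DKK1-SE+/+ against 2.44, 2.16 and 3.68 in DKK1-SE-/- cells. HRH1, the histamine receptor coupled to phospholipase C, had 17.4, 18.1 and 16.9 in DKK1-SE+/+ against 7.89, 8.93 and 10.5 in DKK1-SE-/- cells. In these receptors no sample of a group reached the other group, with log2 fold changes of -1.32 (standard error 0.164, adjusted p = 0.000155) for HTR7 and -0.79 (standard error 0.11, adjusted p = 0.000318) for HRH1. HTR1D had 12.3, 14.6 and 13.9 in DKK1-SE+/+ against 8.71, 6.36 and 8.28 in DKK1-SE-/- cells, also lower without overlap (log2 fold change -0.65, adjusted p = 0.00432). The remaining members were muscarinic acetylcholine receptors, named after their values were seen: CHRM3 had counts of 64, 55 and 66.1 in DKK1-SE+/+ against 6, 33 and 24 in DKK1-SE-/- cells and was called lower (adjusted p = 0.0138) although its TPM overlapped, and CHRM4 was not called (adjusted p = 0.244). Of 5 tested aminergic receptors without the annotation term, 2 were lower and none higher; the call of ADRA1B, named after its values were seen, was lost with single samples left out (0.0675 without DKK1-SE+/+ replicate 2, 0.0542 without DKK1-SE+/+ replicate 3, 0.0568 without DKK1-SE-/- replicate 2). The summed TPM of the 6 members was 40.3, 43.5 and 43.5 in DKK1-SE+/+ against 20.5, 19.1 and 23.8 in DKK1-SE-/- cells.

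Adhesion receptors, which carry long extracellular regions that bind neighbouring cells or matrix, were the family with the most described members. Of 16, 5 were called higher and 6 lower. ADGRF1 had a TPM of 0.21, 0.24 and 0.15 in DKK1-SE+/+ against 2.34, 2.42 and 2.85 in DKK1-SE-/- cells, and ADGRF4, encoded near it on chromosome 6, had 0.04, 0.28 and 0.17 in DKK1-SE+/+ against 0.6, 1.10 and 1.24 in DKK1-SE-/- cells. Both were barely detected in DKK1-SE+/+ cells and higher in each DKK1-SE-/- sample, with log2 fold changes of 3.70 (standard error 0.299, adjusted p = 7.84e-06) and 2.79 (standard error 0.515, adjusted p = 0.00173). Counts of ADGRF1 were 10.97, 6 and 6 in DKK1-SE+/+ against 75, 93 and 110 in DKK1-SE-/- cells. Those of ADGRF4 were 2, 10 and 7 in DKK1-SE+/+ against 25, 54 and 49 in DKK1-SE-/- cells. The DKK1-SE-/- samples alone met the count limit for both. With a DKK1-SE+/+ sample also at the limit, both stay among the 75 members counted without the 7. ADGRL2, a latrophilin, had 3.64, 2.97 and 3 in DKK1-SE+/+ against 8.04, 12.1 and 15.4 in DKK1-SE-/- cells, higher without overlap (log2 fold change 1.83, standard error 0.169, adjusted p = 2.11e-05). ADGRB1, which binds phosphatidylserine, had 0.58, 0.84 and 1.5 in DKK1-SE+/+ against 2.74, 2.26 and 2.79 in DKK1-SE-/- cells, with the same order of the groups (log2 fold change 1.55, adjusted p = 0.000324). In the opposite direction, ADGRG6, which is needed for myelination by Schwann cells, had 93.2, 84.1 and 86.1 in DKK1-SE+/+ against 24.2, 36.4 and 41.5 in DKK1-SE-/- cells, lower in every DKK1-SE-/- sample (log2 fold change -0.96, standard error 0.169, adjusted p = 0.00129). The size of its fall depended on the fit: over the 17 alternatives, which include fits of TPM, the log2 fold change lay between -1.40 and -0.69. The cadherin-like receptors CELSR3 and CELSR2, which act in planar cell polarity, ADGRA2, a co-receptor for Wnt ligands in brain endothelium, and ADGRG2 were also lower without overlap, with log2 fold changes of -1.04, -0.81, -1.15 and -0.96. ADGRG1 had 25.5, 25.2 and 28.9 in DKK1-SE+/+ against 34.8, 31.1 and 42.6 in DKK1-SE-/- cells and a small rise (log2 fold change 0.37, adjusted p = 0.0234), whose call was lost with single samples left out (0.162 without DKK1-SE+/+ replicate 1, 0.106 without DKK1-SE+/+ replicate 2, 0.0668 without DKK1-SE-/- replicate 1).

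**Figure D3:**
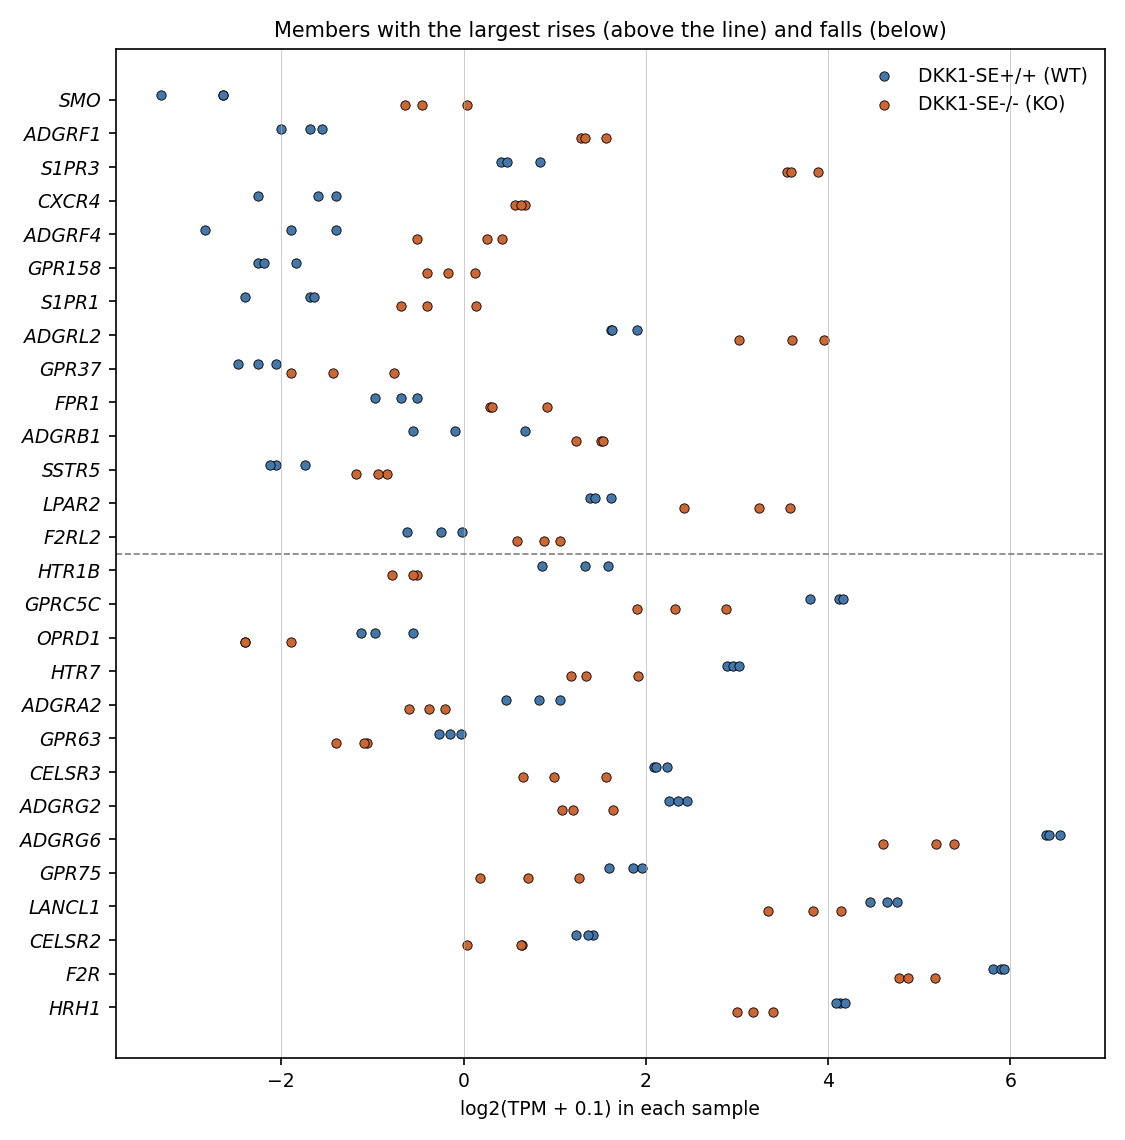
Level of the 14 members with the largest rises and the 14 with the largest falls, among those called and without overlap of TPM, in each of the 6 samples, on a scale of log2(TPM + 0.1) (x axis). Blue points are DKK1-SE+/+ samples and orange points DKK1-SE-/- samples; 6 of the 14 rises (SMO, CXCR4, GPR158, S1PR1, FPR1 and SSTR5) reached the count limit only through DKK1-SE-/- samples, so that their low DKK1-SE+/+ level was fixed by the limit.

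Of the 8 described class C receptors, 6 were tested, with 3 higher and 1 lower. GPRC5C, an orphan receptor induced by retinoic acid like GPRC5A, had a TPM of 13.8, 17.2 and 17.8 in DKK1-SE+/+ against 7.27, 3.64 and 4.91 in DKK1-SE-/- cells. It was lower in each DKK1-SE-/- sample (log2 fold change -1.87, standard error 0.161, adjusted p = 1.27e-05), whereas GPRC5A and GPRC5B of the same group were higher (log2 fold changes 0.51 and 0.93, adjusted p = 0.00323 and 0.0012). GPR158 had counts of 7, 8 and 9 in DKK1-SE+/+ against 32, 38 and 45 in DKK1-SE-/- cells and reached the limit only through the DKK1-SE-/- samples (log2 fold change 2.35, adjusted p = 0.000569), and without it 2 of 5 were higher. SMO, the signal transducer of the Hedgehog pathway, had counts of 4, 0 and 3 in DKK1-SE+/+ against 50, 35 and 33 in DKK1-SE-/- cells, and it too reached the limit only through the DKK1-SE-/- samples. Its summed counts per library size had a ratio of 18.3 (95% interval 8.61 to 46.5) of DKK1-SE-/- to DKK1-SE+/+ cells, which rests on a total of 7 counts in DKK1-SE+/+ cells.

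Orphan and proton-sensing receptors had 14 described members, 5 higher and 4 lower. GPR176 had a TPM of 6.20, 7.41 and 6.31 in DKK1-SE+/+ against 10.4, 11.4 and 10.8 in DKK1-SE-/- cells, and GPR153 had 1.39, 1.85 and 1.92 in DKK1-SE+/+ against 3.54, 2.53 and 3.07 in DKK1-SE-/- cells. GPR39, a zinc-sensing receptor, had 17.6, 17.1 and 17.4 in DKK1-SE+/+ against 11.3, 10.8 and 11.4 in DKK1-SE-/- cells. GPR176 and GPR153 were higher and GPR39 was lower in each DKK1-SE-/- sample, with log2 fold changes of 0.87, 0.98 and -0.47 (adjusted p = 0.000367, 0.00238 and 0.00778). GPR63 and GPR75 were lower without overlap (log2 fold changes -1.06 and -0.95), but the adjusted p of GPR75 was 0.0504 without DKK1-SE+/+ replicate 3, 0.0535 without DKK1-SE-/- replicate 2. GPR37 had counts of 10, 5 and 10 in DKK1-SE+/+ against 36, 15 and 19 in DKK1-SE-/- cells and was called higher (adjusted p = 0.0214), a call that was lost with single samples left out (0.0635 without DKK1-SE+/+ replicate 1, 0.0818 without DKK1-SE+/+ replicate 2, 0.13 without DKK1-SE-/- replicate 1). Named after their values were seen, GPR3, a receptor that raises cyclic AMP without a ligand, and GPR146 were called higher and GPR161, a ciliary receptor of the Hedgehog pathway, was called lower. The calls of these 3 genes were lost in most of the fits without a sample: adjusted p was 0.107 without DKK1-SE+/+ replicate 1, 0.111 without DKK1-SE+/+ replicate 3, 0.114 without DKK1-SE-/- replicate 1, 0.0612 without DKK1-SE-/- replicate 3 for GPR3, 0.115 without DKK1-SE+/+ replicate 1, 0.0815 without DKK1-SE+/+ replicate 2, 0.0823 without DKK1-SE+/+ replicate 3, 0.121 without DKK1-SE-/- replicate 1, 0.0926 without DKK1-SE-/- replicate 2 for GPR146, and 0.0696 without DKK1-SE+/+ replicate 1, 0.206 without DKK1-SE+/+ replicate 3, 0.059 without DKK1-SE-/- replicate 1, 0.101 without DKK1-SE-/- replicate 2, 0.0596 without DKK1-SE-/- replicate 3 for GPR161.

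Opsins and taste and olfactory receptors had 13 described members and 12 tested ones, of which 2 were higher. OPN3, an opsin expressed outside the eye, had a TPM of 11.9, 12.7 and 7.81 in DKK1-SE+/+ against 12.9, 12.9 and 18 in DKK1-SE-/- cells. Its groups did not overlap (log2 fold change 0.72, standard error 0.143, adjusted p = 0.00258), but its exons share bases with those of CHML and KMO. OR2A9P and OR2A20P, pseudogenes of the same cluster on chromosome 7, must be read as uncertain: their counts were 0, 20.4 and 16.6 in DKK1-SE+/+ against 50.4, 27.8 and 71.5 in DKK1-SE-/- cells for OR2A9P and 35.7, 20.4 and 16.6 in DKK1-SE+/+ against 0, 27.8 and 0 in DKK1-SE-/- cells for OR2A20P, equal to each other in replicates 2 and 3 of DKK1-SE+/+ and replicate 2 of DKK1-SE-/- cells. The call of OR2A9P (adjusted p = 0.039) was lost with single samples left out (0.0542 without DKK1-SE+/+ replicate 3, 0.0843 without DKK1-SE-/- replicate 1, 0.109 without DKK1-SE-/- replicate 3), and OR2A20P, not called with all samples, had an adjusted p of 0.00188 without DKK1-SE-/- replicate 2. OR2A7, of the same cluster, had no call (adjusted p = 0.21). Of the 10 members outside the lists, 9 were tested, with 2 higher and 2 lower (22.2% each, near the 19.8% and 19.5% of all tested genes). TPRA1, a membrane protein of little-known function, had a TPM of 15.4, 16.3 and 18.5 in DKK1-SE+/+ against 35, 32.9 and 27.1 in DKK1-SE-/- cells, higher in each DKK1-SE-/- sample (log2 fold change 1.02, standard error 0.14, adjusted p = 0.000286). LANCL1, a glutathione-binding protein that is not an established receptor, had 24.9, 27 and 21.9 in DKK1-SE+/+ against 10.0, 14.1 and 17.5 in DKK1-SE-/- cells, lower in each (log2 fold change -0.83, standard error 0.139, adjusted p = 0.000957). XPR1, a phosphate exporter, and the antisense gene ARHGEF35-AS1 were called with overlapping TPM (adjusted p = 0.0112 and 0.0127), and the calls were lost without DKK1-SE+/+ replicate 2 for XPR1 (0.0672) and without DKK1-SE+/+ replicate 1 for ARHGEF35-AS1 (0.0898).

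The other 5 described members had too few counts for the test. GPRC5D had counts of 11, 6 and 1 in DKK1-SE+/+ against 13, 10 and 11 in DKK1-SE-/- cells, GRM4 had 10, 0 and 3 in DKK1-SE+/+ against 15, 8 and 11 in DKK1-SE-/- cells and C5AR1 had 11, 1 and 6 in DKK1-SE+/+ against 5, 11 and 11 in DKK1-SE-/- cells. LINC02076 and TAS2R14 had 14, 5 and 10 in DKK1-SE+/+ against 4.21, 15 and 5 in DKK1-SE-/- cells, and 12, 6.27 and 10 in DKK1-SE+/+ against 5, 2.12 and 17.5 in DKK1-SE-/- cells. The TPM of the groups overlapped in each of them, and no test was made. At the limit on counts, the third highest count was 10 in GPR162, LINC02076, GRM4 and TAS2R14, just inside. It was 9.78, 9.26 and 9.01 in OR2A42, OR1A1 and CCR10, just outside. GPR162 was the described member that passed only through the DKK1-SE+/+ samples, with counts of 18, 10 and 16 in DKK1-SE+/+ against 8, 6 and 5 in DKK1-SE-/- cells, and it was not called (adjusted p = 0.0765). It was called lower in the filtered limma fits on log2(TPM + 1) (0.0111) and log2(TPM + 0.1) (0.00901), and with the GC-content offset (0.0221).

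Many genes whose symbols match the same families do not carry the annotation term and were no members. Of 256 such genes found by symbol, 38 were tested, with 10 higher (26.3%, against 19.8% of all tested genes) and 8 lower (21.1%, against 19.5%). Of these, 4 were not protein-coding, and P2RY1, GABBR2 and PTGER1 passed the filter only through the DKK1-SE-/- samples. Without both kinds, 6 of 31 were higher (19.4%) and 7 lower (22.6%). The 31 were matched by symbol alone, which does not show that each encodes a receptor. They include 9 genes matched to the orphan and proton-sensing list, of which 1 was higher and 2 lower. The genes named here were chosen after their values were seen. ADORA2B, an adenosine receptor, had a TPM of 128, 122.7 and 120.4 in DKK1-SE+/+ against 79.5, 91.2 and 81.1 in DKK1-SE-/- cells, and ADORA2A, for the same ligand, had 6.81, 8.13 and 10.6 in DKK1-SE+/+ against 21.1, 19.5 and 14.6 in DKK1-SE-/- cells. The former was lower (log2 fold change -0.39, standard error 0.112, adjusted p = 0.017) and the latter higher (log2 fold change 1.37, standard error 0.158, adjusted p = 9.47e-05). The adjusted p of ADORA2B was 0.0608 without DKK1-SE+/+ replicate 1, 0.0614 without DKK1-SE+/+ replicate 2. OXTR, the oxytocin receptor, had 6.50, 7.54 and 5.63 in DKK1-SE+/+ against 1.47, 2.49 and 2.50 in DKK1-SE-/- cells, lower in every DKK1-SE-/- sample (log2 fold change -1.46, standard error 0.181, adjusted p = 0.000152). P2RY1, a receptor for ADP, had counts of 0, 0 and 0 in DKK1-SE+/+ against 16, 20 and 16 in DKK1-SE-/- cells and was at least 6.17-fold higher when DKK1-SE+/+ libraries were set to 3 counts each. DRD1, a dopamine receptor, was lower (log2 fold change -0.97, adjusted p = 0.000503).

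Downstream of the receptors, 4 of 12 tested G alpha subunits were higher (33.3%, against 19.8% of all tested genes) and none was lower (against 19.5%). GNAS, the subunit that stimulates adenylyl cyclase, had a TPM of 302, 315 and 314 in DKK1-SE+/+ against 417, 371 and 431 in DKK1-SE-/- cells, and GNAI1, which inhibits it, had 3.91, 4.55 and 3.94 in DKK1-SE+/+ against 8, 10.3 and 14.7 in DKK1-SE-/- cells. GNA15, which couples to phospholipase C beta, had 2.46, 2.05 and 3.42 in DKK1-SE+/+ against 7.97, 7.41 and 8.35 in DKK1-SE-/- cells. All 3 were higher in each DKK1-SE-/- sample, with log2 fold changes of 0.54 (standard error 0.0983, adjusted p = 0.00167), 1.35 (standard error 0.183, adjusted p = 0.000271) and 1.73 (standard error 0.184, adjusted p = 5.64e-05). Of 10 tested G beta and gamma subunits, 2 were higher and 2 lower (20% each, near the shares of all tested genes); without GNG4, 1 of 9 was higher (11.1%) and 2 lower (22.2%). GNB4 had 14.5, 16.9 and 14.4 in DKK1-SE+/+ against 6.04, 5.77 and 7.32 in DKK1-SE-/- cells and was lower without overlap (log2 fold change -1.24, standard error 0.145, adjusted p = 0.000104), while GNB2 was higher (log2 fold change 0.73, adjusted p = 0.00197). GNG4 had counts of 0, 1 and 1 in DKK1-SE+/+ against 19, 13.4 and 12 in DKK1-SE-/- cells, a ratio of 23.9 (95% interval 6.23 to 204) of DKK1-SE-/- to DKK1-SE+/+ cells that rests on a total of 2 counts in DKK1-SE+/+ cells; it passed the filter only through the DKK1-SE-/- samples and was bound to be higher.

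Of 7 tested receptor kinases and arrestins, which end the signal, 1 was higher (14.3%, against 19.8% of all tested genes) and 2 lower (28.6%, against 19.5%): ARRB1, a beta-arrestin, had a TPM of 20.2, 25.7 and 24.6 in DKK1-SE+/+ against 35.2, 30.8 and 32.8 in DKK1-SE-/- cells, GRK5, a receptor kinase, had 6.99, 7.62 and 8.14 in DKK1-SE+/+ against 4.53, 3.54 and 4.53 in DKK1-SE-/- cells, and GRK3 differed by a log2 fold change of -0.66 (adjusted p = 0.00502, and 0.0789 in limma on log2(TPM + 1)). The arrestin was higher and the kinase GRK5 lower in every DKK1-SE-/- sample, with log2 fold changes of 0.50 (standard error 0.106, adjusted p = 0.00373) and -0.71 (standard error 0.13, adjusted p = 0.00163). Of 12 tested protein-coding RGS genes, whose proteins speed up GTP hydrolysis on G alpha, 3 were higher (25%) and 2 lower (16.7%); without RGS16, 2 of 11 were higher and 2 lower (18.2% each). RGS19 had 9.55, 9.18 and 13.7 in DKK1-SE+/+ against 34.4, 19.5 and 18 in DKK1-SE-/- cells and was higher (log2 fold change 1.18, standard error 0.162, adjusted p = 0.000307), and RGS17 was lower (log2 fold change -0.78, adjusted p = 0.00412), a call that was lost with the GC-content offset (adjusted p = 0.167). RGS16 had counts of 0, 3 and 2 in DKK1-SE+/+ against 19, 14 and 11 in DKK1-SE-/- cells, a ratio of 9.56 (95% interval 3.80 to 30.9) of DKK1-SE-/- to DKK1-SE+/+ cells; it passed the filter only through the DKK1-SE-/- samples, which had to be the higher ones. None of the 3 receptor activity-modifying proteins had enough counts for a test.

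Among the effectors, 3 of 6 tested adenylyl cyclases were higher (50%, against 19.8% of all tested genes) and 2 lower (33.3%, against 19.5%). Without ADCY5, named after its values were seen, which passed the filter only through the DKK1-SE-/- samples, 2 of 5 were higher and 2 lower (40% each). Its call (adjusted p = 0.041) was also lost when any of the 6 samples was left out. ADCY7 had a TPM of 5.03, 4.26 and 4.98 in DKK1-SE+/+ against 2.08, 2.65 and 2.01 in DKK1-SE-/- cells and ADCY3 had 20.3, 30.8 and 22.2 in DKK1-SE+/+ against 9.48, 13.3 and 17.7 in DKK1-SE-/- cells, both lower without overlap, with log2 fold changes of -1.11 (standard error 0.157, adjusted p = 0.000359) and -0.62 (standard error 0.113, adjusted p = 0.00163). ADCY1 was called higher from its counts of 34, 19 and 29 in DKK1-SE+/+ against 55, 51 and 58 in DKK1-SE-/- cells (log2 fold change 1.13, adjusted p = 0.00625). Its TPM of 1.34, 0.59 and 0.63 in DKK1-SE+/+ against 1.65, 0.69 and 1.09 in DKK1-SE-/- cells overlapped, and it had no call in limma fits on log2(TPM + 1) and log2(TPM + 0.1) (adjusted p = 0.493 and 0.503). Of the 2 tested phospholipase C beta genes, PLCB4 was lower (log2 fold change -1.26, standard error 0.198, adjusted p = 0.000668) and PLCB3 higher (log2 fold change 0.43, adjusted p = 0.0178), the latter with its call lost when single samples were left out (0.137 without DKK1-SE+/+ replicate 1, 0.0606 without DKK1-SE+/+ replicate 2, 0.0525 without DKK1-SE-/- replicate 1). Of 9 tested phosphodiesterases that degrade cyclic AMP, 1 was higher (11.1%) and 4 lower (44.4%). PDE4B had 8.25, 6.85 and 5.61 in DKK1-SE+/+ against 0.76, 1.29 and 1.32 in DKK1-SE-/- cells, PDE4D had 2.13, 1.48 and 1.83 in DKK1-SE+/+ against 0.29, 0.44 and 1 in DKK1-SE-/- cells and PDE10A had 9.47, 7.91 and 9.52 in DKK1-SE+/+ against 3.52, 2.68 and 4.14 in DKK1-SE-/- cells. In each of them every DKK1-SE-/- sample was below every DKK1-SE+/+ sample, with log2 fold changes of -2.70 (standard error 0.185, adjusted p = 2.54e-06), -2.18 (standard error 0.249, adjusted p = 8.93e-05) and -1.32 (standard error 0.142, adjusted p = 6.02e-05).

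The cyclic AMP list had 11 tested genes, with 5 higher (45.5%, against 19.8% of all tested genes) and 2 lower (18.2%, against 19.5%). Of these 11, CRTC1, CRTC2 and CRTC3, named after their values were seen, encode coactivators of CREB and are not known response genes. Without them, 4 of 8 were higher (50%) and 2 lower (25%). Without NR4A3 as well, also named afterwards, which passed the filter only through the DKK1-SE-/- samples, 3 of 7 were higher (42.9%) and 2 lower (28.6%). DUSP1, a phosphatase of MAP kinases, had a TPM of 31.8, 32 and 36.7 in DKK1-SE+/+ against 87, 81 and 79.8 in DKK1-SE-/- cells, and PER1, a clock gene, had 5.28, 8.04 and 6.83 in DKK1-SE+/+ against 13, 9.52 and 14.7 in DKK1-SE-/- cells. Both were higher in each DKK1-SE-/- sample, with log2 fold changes of 1.46 (standard error 0.118, adjusted p = 7.99e-06) and 0.94 (standard error 0.132, adjusted p = 0.000334). CREM, a transcription factor that binds cyclic AMP response elements, had 23.7, 23.8 and 26.2 in DKK1-SE+/+ against 10.3, 12 and 7.59 in DKK1-SE-/- cells, lower in each of them (log2 fold change -1.40, standard error 0.231, adjusted p = 0.000896). These lists were not tested as sets, and the direction of receptor signalling was not measured.

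Promoters were read because the study ties DKK1-SE to the transcription factor AP-1 and because cyclic AMP acts through a response element of its own. RefSeq promoters of 300 bases, from 250 before to 50 after the RefSeq start, were found for 62 of the 82 tested members. The RefSeq start lay within 100 bases of the gene start given here in 37 of them. The AP-1 motif TGANTCA was searched, and the cyclic AMP response element TGACGTCA, each of which reads the same on both strands; no stretch of letters matches both. TGANTCA stood in 8 of the 62 promoters (12.9%), against 7.71% of 35116 promoters in the table and 4.50% of those of tested genes. Without the members that passed the count limit through 1 group alone, it stood in 4 of 18 members called higher, 1 of 18 called lower and 2 of 20 not called. TGACGTCA stood in 2 of the 62 promoters (3.23%), those of GPR3 and S1PR2, against 1.85% of all promoters and 3.27% of those of tested genes. A match of letters is no evidence of binding. In ADGRF4 the RefSeq start is an internal one, 12716 bases inside the gene, and both of its stretches lie within the gene; in LPAR2 and HRH1 it is 710 and 145 bases inside, and in FPR1 52237. The stretches that hold the motif are shown for called members, apart from matches at the RefSeq start of GPR3 and FPR1, in lower case with the motif in capitals, on build GRCh38.p14: TGANTCA in ADGRF4, LPAR2 and F2RL2, which were higher, and in HRH1, which was lower, and TGACGTCA in S1PR2 and GPR3, which were higher.
ADGRF4, plus strand, chr6:47698417-47698503: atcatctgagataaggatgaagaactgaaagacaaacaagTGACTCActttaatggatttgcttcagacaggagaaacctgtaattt
ADGRF4, plus strand, chr6:47698497-47698579: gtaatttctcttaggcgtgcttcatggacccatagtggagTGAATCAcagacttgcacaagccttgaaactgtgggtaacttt
LPAR2, minus strand, chr19:19628420-19628470: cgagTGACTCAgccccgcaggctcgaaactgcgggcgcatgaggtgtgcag
F2RL2, minus strand, chr5:76623404-76623480: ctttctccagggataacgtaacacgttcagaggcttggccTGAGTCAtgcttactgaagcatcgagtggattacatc
HRH1, plus strand, chr3:11137127-11137213: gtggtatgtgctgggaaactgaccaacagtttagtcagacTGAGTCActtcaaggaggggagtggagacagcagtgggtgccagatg
S1PR2, minus strand, chr19:10231534-10231581: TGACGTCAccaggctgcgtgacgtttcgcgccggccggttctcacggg
GPR3, plus strand, chr1:27392546-27392621: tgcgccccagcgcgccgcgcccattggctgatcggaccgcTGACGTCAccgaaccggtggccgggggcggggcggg

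The members lie on many chromosomes, and the genes around some of them differed in the same direction. For each tested member, the median log2 fold change was taken over the other tested genes that start within 5 Mb of it, and it ranged from -0.91 to 0.74. It was -0.91 around ADGRA2, -0.82 around HTR7, -0.75 around ADGRG6 and -0.74 around GPR75, members that were lower. Around ADGRB1 and TPRA1, which were higher, it was 0.74 and 0.74, and around NTSR1 it was 0.56. It was also 0.70 around CASR and 0.63 around OR6D1P, named after their values were seen, which were not called. The neighbours of ADGRL2 and OPN3 differed the other way, with medians of -0.50 and -0.41, while both members were higher. So did those of CXCR4 (-0.49) and GPR158 (-0.43), which were bound to be higher by the count limit. Around S1PR3 the median was -0.07. Across the 75 tested members without the 7 that passed the count limit through 1 group alone, the Spearman correlation between the member and its neighbours was 0.404, and 0.305 with them, a description over genes that are not independent, since members that lie together share neighbours. Whether gains or losses of chromosome segments in the clone take part in these values was not tested.

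Base composition moved with the comparison. Across all tested genes, the log2 fold change had a Spearman correlation of 0.417 with the GC content of the transcripts, over genes that are not independent replicates. Without the members that passed the count limit through 1 group alone, the median GC content was 54.1% in members called higher and 48.5% in members called lower. In a fit with offsets for GC content, an alternative chosen after the data were seen, 43 of the 49 called members were called again in the same direction. The 6 that lost the call were ADGRG1, SSTR5, GPR3, GPR146, OR2A9P and XPR1, with adjusted p-values of 0.254, 0.0591, 0.0945, 0.067, 0.0562 and 0.601, while GPR162 gained one (0.0221). The 49 include 6 members that reached the count limit only through the DKK1-SE-/- samples and were bound to be higher. Nothing is drawn from their calls, of which only that of SSTR5 was lost, with or without the replicate block added. Among the other genes named here, RGS17, PLCB3, ENTPD8, ADCY5, SPHK1 and SGPP1 lost theirs (0.167, 0.297, 0.131, 0.0789, 0.403 and 0.719). With the replicate block added, 42 of the 49 were called again: GPR63 (0.0954) and NTSR1 (0.0621) had no call, OR2A9P had its call (0.045) and GPR162 had none (0.0558). Exons of 20 tested members share bases with those of another listed gene that had a mean TPM of at least 1. They include S1PR2 with DNMT1, ADGRA2 with BRF2, GPRC5B with IQCK, GPR39 with LYPD1 and GPR75 with ASB3, and how the counting program divided such reads is not given in the sources used here.

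Over the 17 other ways of computing the comparison, 21 of the 49 called members had the call in the same direction each time. Among them CXCR4, SMO and GPR158 reached the count limit only through the DKK1-SE-/- samples and were bound to be higher. Without the called members of this kind, 18 of 43 had the call each time. The higher ones were S1PR3, LPAR2, ADGRF1, ADGRL2, GPRC5A, GPR176 and TPRA1. For ADGRF1 the DKK1-SE-/- samples alone met the count limit, and of the other group only DKK1-SE+/+ replicate 1 reached 10 counts. The lower ones were F2RL1, F2R, HTR1B, HTR1D, HTR7, HRH1, ADGRA3 (named after its values were seen), ADGRG2, ADGRG6, GPRC5C and GPR39. With each of the 6 samples left out in turn, 36 of the 49 had the call in every fit. Among these 36, CXCR4, SMO, GPR158 and S1PR1 reached the count limit only through the DKK1-SE-/- samples and were bound to be higher. The 13 that lost the call at least once, with FPR1 and SSTR5 of the same kind, are named with their families. In the filtered limma fit on log2(TPM + 1), calls were lost for GPR37 (0.172), SSTR5 (0.0676), GPRC5B (0.105), OPN3 (0.175), XPR1 (0.385), CHRM3 (0.114) and GPR161 (0.214) among others, and in that on log2(TPM + 0.1) also for S1PR2 (0.0667) and OPRL1 (0.0606). ADGRL1, a latrophilin also named afterwards, was not called with all samples (adjusted p = 0.0712) and was called higher without DKK1-SE-/- replicate 3 (adjusted p = 0.0308).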

How the data were processed

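RNA-seq of 3 DKK1-SE-KO and 3 WT samples of PANC-1 was read from 1 deposited table. The expected counts per gene were estimated by the authors from stranded mRNA libraries on build hg38, with the aligner and counting program not stated. The TPM values were scaled within each library by the authors before they were deposited. The fold (ratio), the log2 fold change, the p-value and the gene length columns of the authors were deposited and not used in the tests. Counts were rounded, filtered with filterByExpr, normalised with TMM and compared with the quasi-likelihood test of edgeR 4.0.16 (R 4.3.3), with Benjamini-Hochberg adjustment over all 15179 tested genes. Gene positions are from GENCODE 44 and promoters from RefSeq. Named genes were the 14 largest rises and 14 largest falls among members called without overlap of TPM, the 8 most abundant members, up to 4 members with the smallest p in each receptor list, up to 3 genes in each other list, DKK1, the untested members and those at the count limit. Other genes were named after their values were seen, as the text says, and alternatives were computed for most of them, not for CD14. A limit of 1.2 was taken on the log2 scale, while the study names no log2 for it. Members and lists were chosen with earlier results of these data known. Alternatives were DESeq2 1.42.0, RLE, library size alone, other filters, limma 3.58.1 on TPM, the replicate block, GC-content offsets, other member rules and leaving out each sample.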

Additional observations from a re-analysis of the deposited data

How the results depend on the processing

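Of the 49 called members, 21 had the same call in all 17 alternatives, 18 of 43 without those that reached the count limit through 1 group alone, and no member's call was reversed in any of them. With the GC-content offset the log2 fold change of SGPP1, called lower, was 0.0611, and 0.0574 with the replicate block added. Against 28 higher and 21 lower, and 16 and 5 within the log2 limit, limma-trend on log2(TPM + 1) without a filter gave 10 and 11, and 5 and 3, and with the filter of the edgeR fit it gave 5 and 3 within the log2 limit. Over all tested genes, the fit without a filter called 923 higher and 1397 lower of 31101, against 3013 and 2959 of 15179. Within the log2 limit it had 200 and 350, and the filtered fit 174 and 338, against 753 and 561. Members with a count of 10 in all 6 samples gave 18 higher and 6 within the log2 limit. The study words its limit of 1.2 as an absolute fold change without naming log2, and 1.2 on the linear scale gave 30 higher and 22 lower. The GC-content offset, chosen after seeing the data, gave 8 lower within the log2 limit, and 9 together with the replicate block. Over all tested genes these 2 fits had 497 and 510 lower within it, against 561. The causes were not tested. Without each sample in turn, 21 to 27 members were higher and 19 to 20 lower, and 14 to 17 and 5 to 6 were within the log2 limit. Over all tested genes, 15519 to 15786 in these fits, 2001 to 3703 were higher and 2055 to 3855 lower. Within the log2 limit these were 786 to 922 and 563 to 846. The replicate block gave 25 higher, 20 lower, 16 and 6, and over all tested genes 2404, 2577, 772 and 598. The numbers do not pair the samples: deviations from the group means correlated across genes, which are not independent, with r of -0.12, -0.07 and -0.11 between equal numbers. In limma-trend on log2(TPM + 0.1) the median log2 fold change of all tested genes was -0.11, against 0.03. Low counts limit the members that reach 10 counts in few samples.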
